A study of Homo sapiens with 12 samples.

Results

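The interaction of sorafenib and nobiletin was measured gene by gene in HepG2, a line established from a human liver tumour. It is the difference between the effect of both compounds given together and the sum of their effects given singly, on the log2 scale. All 12 libraries of the study entered it, in 4 groups of 3. Control received vehicle, NOB received nobiletin at 5 µM, SOR received sorafenib at 2 µM, and SOR+NOB received both at these doses. The members are all genes of the deposited count table that passed a filter on low counts, 17115 of 58735. The series' text gives the effect of the single and joint treatments on liver cancer cells as its subject. The labels state no exposure time, and nothing in them says that libraries of a group came from separate cultures, so p-values measure the spread between these samples, which may be technical.

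Sorafenib is an oral kinase inhibitor whose targets include RAF kinases and the receptors of VEGF and PDGF, and it is used against advanced liver cancer. Nobiletin, a citrus flavonoid that carries several methoxy groups, is studied for effects on the circadian clock, lipid metabolism and cell proliferation. When each of a pair of compounds changes a transcript by a factor and does so independently of the other, the factors multiply, so log2 effects add. A joint effect beyond that sum is commonly called synergy, and one short of it antagonism. A transcript can also respond to the pair alone, or move against both single responses.

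Total counts were 17945656 to 25669823 per library. SOR+NOB replicate 1 stood apart. It had counts in 20138 genes, against 22542 to 25014 in the other libraries, and the chi-square per degree of freedom between its counts and those of its 2 fellow replicates was 26.2 and 18.4, against 2.74 to 5.44 for the other pairs within a group. The total, form and beyond-all-groups counts below are therefore also given without it. Among the 38 gene lists, the number of members called moved by over 1.5 times without it in cytosolic ribosomal proteins only. All 11 HepG2 markers (such as ALB, AFP and APOB) averaged at least 1 CPM, and their summed level was 30900 to 33800 CPM in SOR+NOB, against 43600 to 45700 in Control, 28200 to 28900 in NOB and 79600 to 82700 in SOR. Of 7 fibroblast, 6 blood and 4 endothelial markers, 1, 1 and 2 averaged at least 1 CPM, and CD3E, HBB and KDR had no count. The summed level of blood markers was 594 to 621 CPM in Control, 705 to 722 in NOB, 320 to 333 in SOR and 208 to 230 in SOR+NOB, nearly all of it from LYZ (608, 714, 324 and 221 CPM on average), while the other 5 averaged under 2 CPM in every group. That of fibroblast markers was 23 to 24.8, 8.11 to 10.3, 3.47 to 4.49 and 2.17 to 3.19 CPM in the same order, nearly all from PDGFRB, and that of endothelial markers was 12.2 to 15.7, 12 to 13.6, 12.8 to 17.1 and 5.36 to 7.47. The part of these markers in the results was not tested. CPM values are counts relative to the TMM-scaled library size, so they are shares of the sequenced RNA. In bulk RNA, fewer cells of a kind and less RNA per cell cannot be told apart.

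Departure from the sum of the single effects was widespread. Of the 17115 genes tested, 8908 (52%) were called in the interaction (edgeR quasi-likelihood test, Benjamini-Hochberg adjusted p under 0.05). SOR+NOB was higher than the sum in 4298 (25.1% of genes tested) and lower in 4610 (26.9%), and 4063 (23.7%) departed by at least 2-fold. Without SOR+NOB replicate 1, 9807 of 17794 genes tested were called. The median departure over all genes was -0.04 log2. Against Control, NOB was called in 38.2% of genes (18.9% higher, 19.2% lower), SOR in 41% (21.7% higher, 19.3% lower) and SOR+NOB in 64.2% (32.2% higher, 32% lower). SOR+NOB differed from SOR in 63% of genes (31.4% higher, 31.6% lower) and from NOB in 60.7% (30.3% higher, 30.4% lower). Counts of list members below are read against these shares, which include noncoding genes and genes at low levels. Among protein-coding genes 30.3% were higher than the sum and 28.1% lower. In the fifth of genes with the highest mean CPM it was 36.3% and 34.1%, the nearer comparison for lists of well-expressed genes.

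The called genes were sorted into 6 forms by the calls of each treatment against Control. Emergent genes, in which neither single effect was called but the joint effect was, were the most numerous, with 2292 genes or 25.7% of those called. Synergy, a joint effect in the direction of the single effect and beyond the sum, held 1106 (12.4%). Of the forms short of the sum, partial loss, with a joint effect in the single direction but short of the sum, held 1330 (14.9%). Cancellation, with no joint effect called, held 1670 (18.7%), and reversal, with a joint effect against the single direction, held 1466 (16.5%). In 669 genes (7.51%) the single effects were called in opposite directions, and 375 (4.21%) could not be placed. Without SOR+NOB replicate 1 the forms held 1908 emergent, 1412 synergy, 1552 partial loss, 1784 cancellation, 1787 reversal, 992 opposed and 372 unplaced genes, so emergent genes stayed the most numerous. Placement depends on which side of the threshold each single effect fell.

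**Figure D1:**
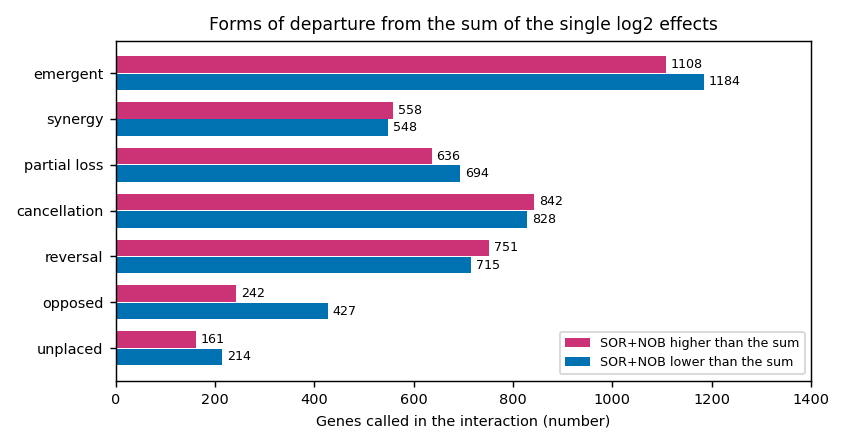
Number of genes called in the interaction (x axis) by form of departure (y axis), split by whether SOR+NOB was higher (pink) or lower (blue) than the summed single effects. The largest bars are emergent (1108 higher, 1184 lower), and opposed genes are the most uneven, with 427 lower and 242 higher.

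Most genes that both compounds moved in the same direction alone departed from the sum of those effects together. Of 1564 genes raised by both, 995 were lower than the sum, 112 higher and 457 not called. Their median log2 change was 0.52 with NOB, 0.57 with SOR and 0.60 with both. The 1539 genes lowered by both were a mirror image, with 1067 higher than the sum, 152 lower and 320 not called, and medians of -0.62, -0.67 and -0.59. The Control libraries enter both single effects with a minus sign and the interaction with a plus sign, so error in Control favours this pattern, and its part in these counts was not tested. A comparison that does not use single effects was made by setting SOR+NOB against each other group. SOR+NOB lay above all 3 in 3302 genes (19.3%) and below all 3 in 3221 (18.8%), and in 839 and 623 of these the interaction was not called. Without SOR+NOB replicate 1 it lay beyond all 3 in 6846 of 17794 genes. Of the 3302 above, 163 passed the filter on low counts through SOR+NOB alone, as did 156 of the 4298 higher than the sum. In all, 580 tested genes passed this way, which favours calls above the other groups without forcing them. Of the 3221 below, 26, 34 and 49 passed through Control, NOB and SOR alone. So did 10, 50 and 99 of the 4610 lower than the sum. Among the 7615 genes in which neither single effect was called, 1269 were higher than the sum, 1398 lower and 4948 not called in the interaction.

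Several metal response genes were far higher with the pair than the single effects add up to. Metallothioneins are small cysteine-rich proteins that bind zinc and copper, and their genes are switched on by the zinc-sensing factor MTF1 through metal response elements in their promoters. Of 16 members, 12 passed the filter, 6 were higher than the sum and 0 lower, against 25.1% and 26.9% of all genes, and their median departure was 5.17 log2, against -0.04. Of the 12, 3 had a group at 0 counts, for which a fitted departure has no bound, and the median of the other 9 was 2.16. The promoters of 3 members are shown because they hold repeated copies of the metal response element core and belong to genes whose level was highest in SOR+NOB. The windows run 5′ to 3′ on the gene's strand, from 250 bases before to 50 bases after the RefSeq start (GRCh38.p14), and capitals mark TGCACNC or TGCGCNC on either strand. MT2A is on the plus strand at chr16:56608334-56608633, MT1X on the plus strand at chr16:56682220-56682519 and SLC30A2 on the minus strand at chr1:26046069-26046368.
MT2A: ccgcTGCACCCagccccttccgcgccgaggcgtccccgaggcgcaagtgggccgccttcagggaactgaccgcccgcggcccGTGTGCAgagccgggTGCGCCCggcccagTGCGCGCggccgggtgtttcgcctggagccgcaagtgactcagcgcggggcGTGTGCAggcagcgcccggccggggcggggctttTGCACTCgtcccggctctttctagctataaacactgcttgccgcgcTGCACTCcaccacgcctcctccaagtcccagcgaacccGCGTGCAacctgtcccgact
MT1X: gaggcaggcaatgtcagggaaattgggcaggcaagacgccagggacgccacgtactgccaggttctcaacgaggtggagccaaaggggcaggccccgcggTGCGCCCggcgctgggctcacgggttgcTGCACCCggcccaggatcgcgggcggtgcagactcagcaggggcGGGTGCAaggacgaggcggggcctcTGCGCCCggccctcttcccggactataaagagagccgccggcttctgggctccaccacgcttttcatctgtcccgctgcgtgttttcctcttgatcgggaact
SLC30A2: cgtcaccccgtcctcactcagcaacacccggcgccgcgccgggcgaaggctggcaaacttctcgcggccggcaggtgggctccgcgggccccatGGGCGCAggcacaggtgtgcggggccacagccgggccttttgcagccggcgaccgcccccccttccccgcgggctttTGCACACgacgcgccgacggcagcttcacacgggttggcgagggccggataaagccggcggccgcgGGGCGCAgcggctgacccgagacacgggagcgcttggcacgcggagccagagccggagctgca
The MT2A window held 8 matches, MT1X 4 and SLC30A2 3, with no overlaps among the matches. At least 1 match stood in 29.3% of 27305 RefSeq promoters, at least 3 in 2.27%, at least 4 in 0.593% and at least 8 in 0.022%. Of the 12 tested members 7 had a promoter in the table, and 5 of these held 2 or more matches, against 8.59% of all promoters. MTF1 and SLC39A10 held none. Among the 5, MT1B and SLC30A2 passed the filter on low counts through SOR+NOB alone, where they were high. The windows shown were chosen for their repeated copies, so the shares describe that choice and do not test it. A match is a description of the letters and not a site shown to be used.

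MT2A (ENSG00000125148, chr16:56608199-56609497, GRCh38) was raised by NOB, lowered by SOR and far above both singles with the pair. Its level was 28.3, 34.1 and 32.5 CPM in Control, 61.2, 61.9 and 57.0 with NOB, 7.11, 5.66 and 7.26 with SOR and 548, 546 and 591 with SOR+NOB. All SOR+NOB libraries lay above every other library, while SOR libraries were the lowest. The single log2 changes of 0.92 and -2.24 sum to -1.31, the joint change was 4.15, and the departure was 5.46 ± 0.12 (SE, adjusted p = 1.93e-19). MT1E (chr16:56625475-56627112) followed the same order, with 6.64, 6.84 and 9.32 CPM in Control, 14.5, 14.4 and 16.4 with NOB, 1.97, 1.22 and 2.79 with SOR and 277, 243 and 232 with SOR+NOB. It departed by 5.97 ± 0.22 (SE, adjusted p = 3.58e-14). MT1G (chr16:56666731-56668065) was raised by NOB alone and not called with SOR, at 1.14, 1.04 and 0.643 CPM in Control, 6.61, 8.35 and 5.65 with NOB, 1.38, 1.17 and 1.57 with SOR and 299.5, 284 and 293 with SOR+NOB. The departure of MT1G was 4.88 ± 0.32 (SE, adjusted p = 2.39e-11), above a sum that was itself 3.39. MT1X (chr16:56682424-56684196), lowered by SOR and not called with NOB, stood at 1.05, 1.71 and 0.964 CPM in Control, 2.01, 1.66 and 2.3 with NOB, 0.167, 0.222 and 0.762 with SOR and 44.0, 77.8 and 68.5 with SOR+NOB. Its departure was 6.70 ± 0.59 (SE, adjusted p = 1.11e-07), a size poorly set because SOR held only 23 counts, at 6.26 to 7.63 with 1 library left out. No SOR+NOB library of MT1E, MT1G or MT1X overlapped another group. MT1F departed by 2.16 ± 0.28 (adjusted p = 9.97e-07).

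Zinc transporters were split. SLC30A2, which moves zinc into vesicles, had 0 counts in all Control, NOB and SOR libraries and 7.72 CPM on average in SOR+NOB (498 counts), at least 169-fold, 180-fold and 159-fold higher by a floor of 3 counts over a group. MT1B was likewise at 0 counts in the 3 other groups and had 58 in SOR+NOB. MT1M had 0 counts in Control and SOR, 2 in NOB and 141 in SOR+NOB. The interaction of these 3 genes was not called by edgeR, their fitted departures have no bound, and each passed the filter through SOR+NOB. SLC30A1, the zinc exporter of the cell surface, had 86.2, 75.9 and 81.9 CPM in Control, 84.5, 90.7 and 85.8 with NOB, 106, 111 and 108 with SOR and 201, 191 and 181 with SOR+NOB. Its departure was 0.72 ± 0.09 (SE, adjusted p = 3.10e-07). MTF1 (0.27 ± 0.16, adjusted p = 0.168), MT1A (0.25 ± 0.83, adjusted p = 0.823) and SLC39A10, a zinc importer (-0.14 ± 0.10, adjusted p = 0.225), were not called. The MT1 genes are near-identical copies, so reads may have been split among them and the value of a single MT1 gene is uncertain.

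**Figure D2:**
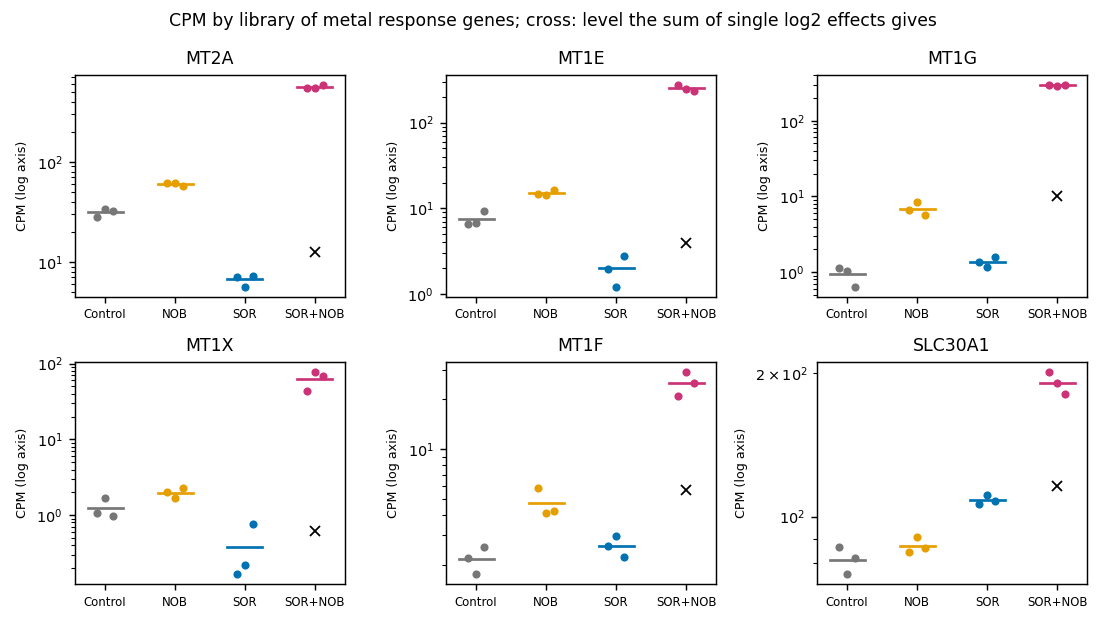
CPM of 6 metal response genes (log y axes) in each library of the 4 groups, with group means as bars and a cross at the level that the summed single effects give. The SOR+NOB libraries lie above the cross and above all other libraries in each panel.

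Emergent genes changed with the pair, while neither single effect was called. The 1108 that were higher than the sum had a median joint change of 0.76 log2, and 371 departed by at least 2-fold. The 1184 that were lower had a median joint change of -1.34, and 784 departed by at least 2-fold, or -1.29 and 745 over the 1145 with counts in all groups. Of the 1184 lower genes, 10, 26 and 39 passed the filter through Control, NOB and SOR alone. Of the 1108 higher genes, 79 passed it through SOR+NOB alone, and HRH3 and ANKRD33B are among these. HRH3, the histamine H3 receptor, had 3 counts in Control, 1 in NOB and 2 in SOR over the group's libraries, and 710 in SOR+NOB. PCLO (chr7:82754013-83162930), a scaffold protein of the presynaptic active zone, stood at 0.923, 0.285 and 0.276 CPM in Control, 0.502, 0.237 and 0.444 with NOB, 0.167, 0.444 and 0.203 with SOR and 23.3, 17.6 and 21.4 with SOR+NOB. All SOR+NOB libraries were above all others. With 33, 28 and 16 counts over the libraries of the other groups, against 1306, it lay close to the filter's minimum outside SOR+NOB, so the size of its departure (6.60 ± 0.63) is poorly set. ANKRD33B, with 4, 2, 3 and 515 counts in the same order of groups, was the third. On the falling side SLC29A2 (chr11:66362521-66372214), an equilibrative nucleoside transporter, stood at 11.6, 11.2 and 12.7 CPM in Control, 10.6, 10.2 and 10.8 with NOB, 14.4, 13.0 and 12.7 with SOR and 1.1, 1.59 and 1.27 with SOR+NOB. Its SOR+NOB libraries were the lowest and the other groups lay close together, with a departure of -3.17 ± 0.21 (SE, adjusted p = 3.26e-11). MRPL53, a mitochondrial ribosomal protein, averaged 4.54, 6.06 and 5.29 CPM in Control, NOB and SOR and 0.755 in SOR+NOB, a departure of -3.18 ± 0.39. ZNF781, a zinc finger gene, departed by -3.21 ± 0.50, or -3.90 without SOR+NOB replicate 1. HNRNPA2B1, an RNA-binding protein of splicing and RNA transport, was measured at 459.7, 467 and 476 CPM in Control, 446, 472 and 468 with NOB, 488, 489.6 and 498 with SOR and 211, 228 and 230.4 with SOR+NOB. Its departure was -1.12 ± 0.07 (SE, adjusted p = 7.57e-12).

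Synergy was seen in 558 genes above the sum and 548 below it. In 264 of the 1106 both single effects were called, in 450 only that of NOB and in 392 only that of SOR. GPCPD1 (chr20:5544404-5611026), a phosphodiesterase that releases choline from glycerophosphocholine, rose with NOB and much further with the pair, at 13.8, 13.4 and 12.6 CPM in Control, 18.3, 20.5 and 17.6 with NOB, 12.2, 9.88 and 11.6 with SOR and 137, 114 and 105 with SOR+NOB. Every SOR+NOB library was above every other, and the departure was 2.89 ± 0.15 (SE, adjusted p = 5.33e-13). NEURL3, an E3 ubiquitin ligase of the neuralized family, averaged 0.598 CPM in Control, 0.353 with NOB, 1.51 with SOR and 53.6 with both, a departure of 5.84 ± 0.44 (adjusted p = 2.56e-10). SOCS1 (chr16:11254405-11256200), an inhibitor of JAK kinases and cytokine signalling, fell with NOB and fell further with the pair. Its values were 14.6, 14.0 and 16.4 CPM in Control, 10.7, 10.5 and 9.68 with NOB, 15.0, 21.4 and 18.3 with SOR and 0.77, 2.23 and 2.44 with SOR+NOB. SOR+NOB replicate 1 was the lowest of all libraries, the other groups did not reach the SOR+NOB range, and the departure was -2.74 ± 0.29 (SE, adjusted p = 6.00e-08). SLC17A3, a urate and phosphate transporter, kept 7 counts in SOR+NOB against 276 in Control, 115 in NOB and 221 in SOR. It departed by -3.61 ± 0.58, or -4.84 without SOR+NOB replicate 1. ANKRD55 departed by -2.76 ± 0.51 (adjusted p = 0.000105), a size poorly set because SOR+NOB held only 17 counts, at -3.58 to -2.36 with 1 library left out.

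Partial loss was made up mostly of genes that both compounds moved alone, 1085 of 1330. In 636 of these genes SOR+NOB was higher than the sum. It lay nearer Control than both singles in 79 of them, farther than both in 28, between them in 97, and differed from neither single group in 159 and from 1 of the 2 in 273. The 694 lower genes divided likewise, into 69, 37, 130, 190 and 268. MATN3 (chr2:19992111-20012694), an extracellular matrix protein of the matrilin family, was lowered by each compound and nearly back to Control with both. It measured 383, 382 and 384 CPM in Control, 121, 123 and 123 with NOB, 26.3, 24.9 and 25.6 with SOR and 342, 305 and 308 with SOR+NOB. The groups did not overlap, SOR was the lowest, and the departure was 5.28 ± 0.08 (SE, adjusted p = 6.15e-22). VGF, a secreted neuropeptide precursor, averaged 17.8, 5.32, 0.545 and 10.8 CPM in Control, NOB, SOR and SOR+NOB, and departed by 6.09 ± 0.34 (adjusted p = 1.33e-12). GGT5, a gamma-glutamyltransferase that acts on leukotriene C4, departed by 6.46 ± 0.53, a size poorly set because NOB held 31 counts and SOR 20. In the other direction DYSF, a membrane repair protein, averaged 1.09, 7.0, 16.0 and 5.57 CPM in the same order, a departure of -4.19 ± 0.28. PGLYRP2, a peptidoglycan-cleaving amidase secreted by liver, departed by -4.83 ± 0.48, a size poorly set because Control held only 9 counts. APOL4, of the apolipoprotein L family, departed by -3.73 ± 0.26.

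Cancellation left no joint effect that was called, in 842 genes higher than the sum and 828 lower. ANKRD1 (chr10:90912096-90921276), a target of YAP and TEAD, fell with either compound alone. Its level was 39.5, 35.3 and 36.3 CPM in Control, 7.99, 8.92 and 8.35 with NOB, 9.87, 8.82 and 8.99 with SOR and 43.9, 36.6 and 37.5 with SOR+NOB. Control and SOR+NOB libraries overlapped, and both lay above all NOB and SOR libraries. The joint change was 0.09 log2 and the departure 4.22 ± 0.14 (SE, adjusted p = 5.70e-16). ANXA3, a calcium-dependent phospholipid-binding protein, averaged 11.9, 2.23, 1.71 and 10.2 CPM, a departure of 4.97 ± 0.28. ITGA10, a collagen-binding integrin subunit, departed by 5.08 ± 0.53, a size poorly set because SOR held only 8 counts. UNC93A (chr6:167271169-167316019) was raised strongly by SOR and slightly by NOB, and was not called with the pair, at 6.86, 6.84 and 6.29 CPM in Control, 8.54, 9.44 and 7.75 with NOB, 113, 103 and 104 with SOR and 7.2, 7.42 and 8.38 with SOR+NOB. SOR libraries stood alone and the other 3 groups lay close together. The departure was -4.15 ± 0.14 (SE, adjusted p = 6.23e-16). RBP2, an intracellular retinol-binding protein, averaged 0.366, 2.9, 10.9 and 0.298 CPM and departed by -8.07 ± 0.49 (adjusted p = 6.53e-12). With 24 counts in Control and 20 in SOR+NOB this size is poorly set, at -8.9 to -7.74 with 1 library left out. EXTL1, a glycosyltransferase of heparan sulfate synthesis, departed by -4.03 ± 0.47.

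Reversal placed SOR+NOB on the other side of Control from the single effects. CYR61 (chr1:85580761-85583962), a secreted matricellular protein also named CCN1, was lowered by NOB and by SOR and raised by both. It stood at 47.5, 50.3 and 50.7 CPM in Control, 14.8, 13.4 and 13.4 with NOB, 4.47, 4.88 and 5.74 with SOR and 106, 125 and 129 with SOR+NOB. The 4 groups did not overlap, and their order from low to high was SOR, NOB, Control and SOR+NOB. The single changes of -1.84 and -3.30 sum to -5.14, the joint change was 1.28, and the departure was 6.42 ± 0.14 (SE, adjusted p = 2.60e-19). HAMP, which encodes the iron hormone hepcidin, stood at 3.96, 4.7 and 3.4 CPM in Control, 1.34, 1.33 and 1.09 with NOB, 4.68, 4.22 and 4.26 with SOR and 94.0, 130.1 and 114 with SOR+NOB. NOB libraries were the lowest and SOR+NOB libraries the highest, and the departure was 6.36 ± 0.23 (SE, adjusted p = 1.67e-15). FGFR2 (chr10:121478334-121598458), a fibroblast growth factor receptor, rose with each compound and fell below Control with the pair, at 2.68, 3.37 and 2.39 CPM in Control, 5.61, 5.36 and 5.37 with NOB, 18.4, 18.3 and 18.1 with SOR and 1.1, 0.815 and 1.49 with SOR+NOB. The departure was -4.95 ± 0.27 (SE, adjusted p = 8.99e-13). PPP2R2C, a regulatory subunit of protein phosphatase 2A, kept 12 counts in SOR+NOB against 337 in Control, 646 in NOB and 598 in SOR, a departure of -6.51 ± 0.52. All 12 counts were in SOR+NOB replicate 2, and without that library the group is at 0 and the fitted departure, -11.6, has no bound. TIGD3, derived from a DNA transposon, departed by -6.15 ± 0.55. With 8 counts in SOR+NOB this size is poorly set, at -7.39 to -5.68 with 1 library left out.

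Where the single effects were opposite, SOR+NOB lay above all 3 other groups in 106 genes and below all 3 in 212 of the 669. CYP7A1, the rate-limiting enzyme of classic bile acid synthesis, stood at 1.5, 1.9 and 1.7 CPM in Control, 0.335, 0.949 and 0.524 with NOB, 15.3, 12.4 and 15.6 with SOR and 0, 0 and 0 with SOR+NOB. With 0 counts, SOR+NOB was at least 36-fold lower than Control, 12.8-fold lower than NOB and 306-fold lower than SOR by the same floor. AKR1D1 (chr7:138002324-138117986), which reduces the steroid ring in bile acid synthesis, followed with 13.1, 13.2 and 15.1 CPM in Control, 7.11, 7.68 and 7.3 with NOB, 107, 91.7 and 103 with SOR and 4.01, 6.35 and 4.84 with SOR+NOB. SOR libraries were far above the rest and SOR+NOB libraries the lowest, with a departure of -3.39 ± 0.17 (SE, adjusted p = 3.13e-13). Of 15 bile acid genes tested, 5 were higher than the sum and 9 lower, with medians of -0.65 log2 for NOB, 0.37 for SOR, -0.74 for both and -0.52 for the departure, or -0.42 without CYP7A1. CYP1A1 (chr15:74719542-74725610), a cytochrome P450 induced through the aryl hydrocarbon receptor, stood at 3.52, 2.33 and 3.77 CPM in Control, 30.6, 28.2 and 29.9 with NOB, 1.63, 1.61 and 1.32 with SOR and 1.43, 1.25 and 1.18 with SOR+NOB. NOB libraries were the highest by far, and SOR+NOB libraries overlapped the SOR range or lay just below it. Its departure was -3.46 ± 0.28 (SE, adjusted p = 9.91e-10), and SOR+NOB against SOR was not called. PCDH1, a protocadherin, averaged 3.74, 8.47, 0.372 and 20.6 CPM, a departure of 4.65 ± 0.33, or 4.39 to 5.14 with 1 library left out. SOR held only 22 counts of it. SLC2A1, the glucose transporter GLUT1, averaged 853, 2003, 148 and 654 CPM. It departed upward on the log2 scale (0.91 ± 0.07) and downward in CPM, by -644 CPM against the sum of the differences. This change of sign with the scale occurred in 64 of the 8908 called genes, of which 40 were placed as synergy.

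**Figure D3:**
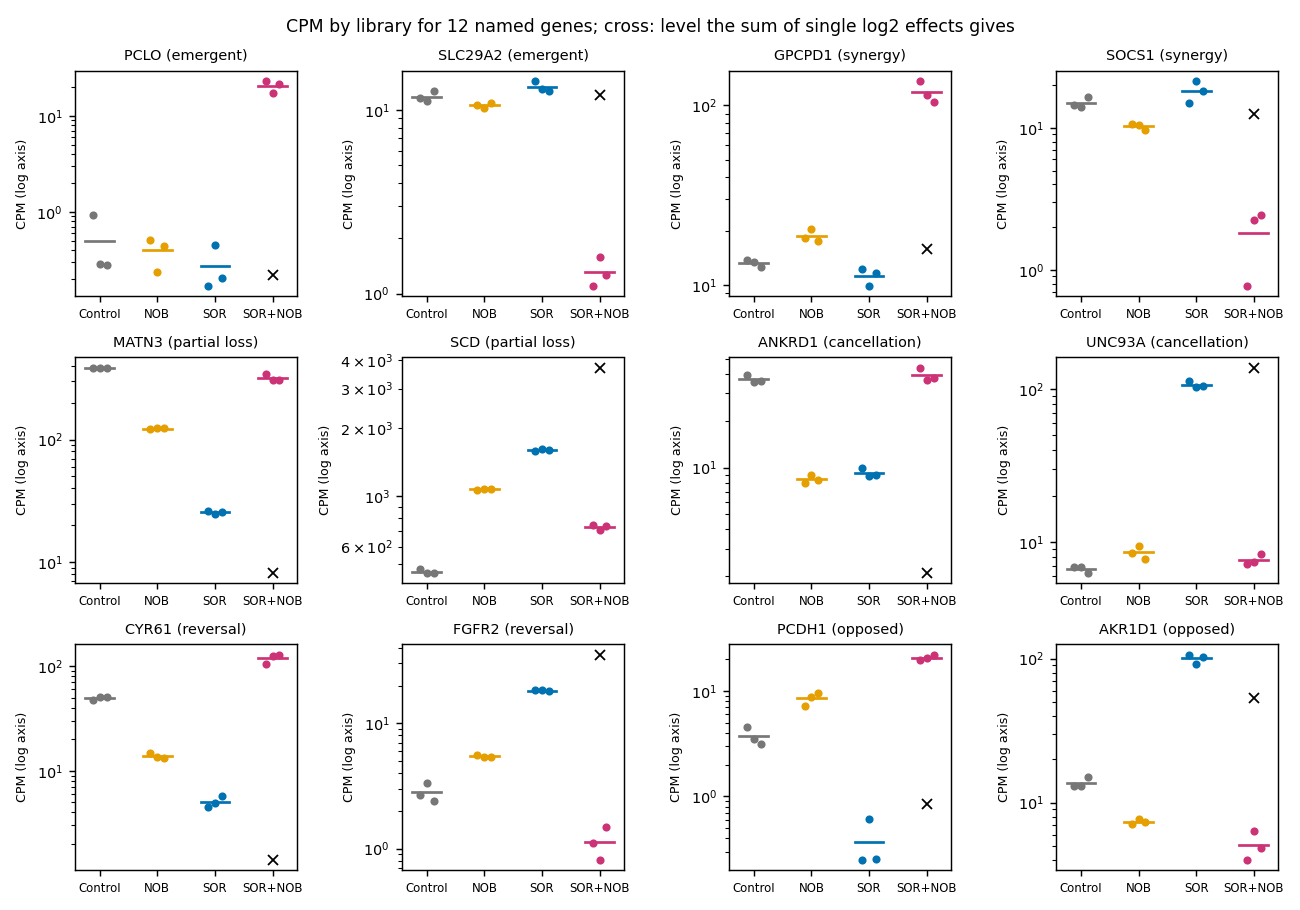
CPM of 12 genes (log y axes), 2 for each form, in every library of the 4 groups, with group means as bars and a cross at the level that the sum of the single log2 effects gives. SOR+NOB leaves the level of the other groups in emergent and synergy panels, returns towards Control in partial loss and cancellation panels, and passes to the other side of Control in reversal panels.

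Genes of mitosis were raised by each compound alone and were short of the sum together. NOB raised 27 of the 28 members, SOR 27 and the pair 20, and 26 were lower than the sum and 0 higher, with medians of 1.42 log2 for NOB, 1.23 for SOR, 0.74 for both and -1.81 for the departure. Of these, 19 were partial losses, 4 cancellations and 3 reversals. Many promoters of late cell cycle genes carry the cell cycle genes homology region, the binding element of the DREAM and MuvB complexes, whose core letters are TTTGAA. The windows of TOP2A (minus strand, chr17:40417847-40418146) and MKI67 (minus strand, chr10:128126374-128126673) are shown because these members had the smallest interaction p in the list, with TTTGAA on either strand in capitals.
TOP2A: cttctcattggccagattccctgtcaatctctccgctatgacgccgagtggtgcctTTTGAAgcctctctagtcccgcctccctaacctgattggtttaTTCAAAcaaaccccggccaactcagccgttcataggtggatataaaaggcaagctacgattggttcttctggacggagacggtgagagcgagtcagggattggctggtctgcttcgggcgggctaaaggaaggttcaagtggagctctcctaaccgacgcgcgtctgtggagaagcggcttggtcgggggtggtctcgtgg
MKI67: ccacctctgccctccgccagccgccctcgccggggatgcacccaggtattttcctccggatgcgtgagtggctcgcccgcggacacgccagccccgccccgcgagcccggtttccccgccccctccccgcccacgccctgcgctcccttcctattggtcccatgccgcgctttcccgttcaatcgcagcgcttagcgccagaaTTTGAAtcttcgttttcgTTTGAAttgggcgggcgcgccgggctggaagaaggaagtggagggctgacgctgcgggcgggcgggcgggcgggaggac
Each window held 2 matches. A promoter was at hand for 24 members, of which 17 held at least 1 match, against 15.4% of all 27305 promoters, and 4 held 2 or more, against 2.34%.
TOP2A (chr17:40388516-40417950), the DNA topoisomerase of chromosome segregation, stood at 74.1, 79.4 and 75.1 CPM in Control, 261, 280.3 and 267 with NOB, 241, 239.5 and 242 with SOR and 139, 101 and 108 with SOR+NOB. Its departure was -2.88 ± 0.11 (SE, adjusted p = 1.08e-14). MKI67 (chr10:128096659-128126385), the Ki-67 proliferation antigen, stood at 27.4, 29.2 and 31.9 CPM in Control, 87.8, 86.4 and 89.7 with NOB, 67.1, 68.0 and 69.6 with SOR and 34.2, 29.2 and 33.2 with SOR+NOB. In MKI67 the Control and SOR+NOB libraries overlapped and the single groups lay above both, with a departure of -2.66 ± 0.10 (SE, adjusted p = 5.41e-15). BIRC5 (survivin), which guides chromosomes and inhibits apoptosis, departed by -2.71 ± 0.12. TTK and PRC1 were the 2 members not called.

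DNA replication genes rose with each compound and with the pair, in 31 of 32 members with NOB, 29 with SOR and 31 with both. Their medians were 0.90 log2 for NOB, 0.74 for SOR and 1.40 for both, and the median departure was -0.25. In the interaction 6 were higher than the sum, 15 lower and 11 not called, and SOR+NOB lay above all 3 other groups in 19 members, against 1 of 28 mitosis genes. This difference between the lists is given as counts and was not tested. The helicase subunits MCM2, MCM4, MCM5 and MCM7 were among the 6 synergies, and they were chosen for mention after their values were seen. MCM5 averaged 23.1, 28.1, 35.4 and 72.1 CPM, a departure of 0.74 ± 0.12. GINS1, a subunit of the replicative helicase, departed by -2.24 ± 0.16, and PCNA, the sliding clamp of DNA polymerases, by -1.12 ± 0.09.

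Genes of cholesterol synthesis and uptake rose with NOB in 16 and with SOR in 21 of 23 tested members, while the pair raised 7 and lowered 7. INSIG1, also on this list, did not pass the filter on low counts, and whether this reflects its expression or the counting of reads was not tested. Of the 23, 22 were lower than the sum and 1 was higher. Medians were 0.45 log2 for NOB, 1.19 for SOR, -0.08 for both and -1.56 for the departure. Of these, 8 were cancellations, 8 partial losses and 5 reversals. SQLE, squalene epoxidase, stood at 91.1, 90.6 and 83.5 CPM in Control, 156, 155 and 159.5 with NOB, 229, 224 and 225 with SOR and 59.8, 60.2 and 59.8 with SOR+NOB. The 4 groups did not overlap, SOR+NOB was the lowest, and the departure was -2.74 ± 0.08 (SE, adjusted p = 1.34e-17).

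Fatty acid genes followed with smaller medians. Of 18 genes of fatty acid and triglyceride synthesis, 13 were lower than the sum and 3 higher, with a median departure of -0.76 log2. SCD, the desaturase that makes oleate, stood at 477, 458 and 459.6 CPM in Control, 1071, 1080 and 1079 with NOB, 1582, 1621 and 1606 with SOR and 745, 712 and 739 with SOR+NOB. The order from low to high was Control, SOR+NOB, NOB and SOR without overlap, and the departure was -2.34 ± 0.06 (SE, adjusted p = 7.94e-18). DGAT1, which completes triglycerides, averaged 64.8, 115, 275 and 59.0 CPM, a departure of -3.05 ± 0.08. Of 22 genes of fatty acid oxidation, 16 were lower and 4 higher, with a median of -0.46. PPARA, the nuclear receptor that drives this pathway, averaged 104, 134, 205 and 60.8 CPM and departed by -2.12 ± 0.07. CPT1A, which loads fatty acids into mitochondria, went the other way with 2.38 ± 0.09.

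All 13 mRNAs of the mitochondrial genome were lower than the sum. Medians were 0.15 log2 for NOB, 0.49 for SOR and -1.28 for both, and the median departure was -1.97, or -2.20 without SOR+NOB replicate 1. Of the 13, 10 were reversals. MT-CO3, part of the cytochrome c oxidase of the respiratory chain, stood at 6589, 6238 and 5804 CPM in Control, 6470, 6417 and 6414 with NOB, 8397, 7742 and 9032 with SOR and 1661, 1597 and 1565 with SOR+NOB. SOR+NOB libraries were the lowest, and SOR libraries were highest with NOB inside the Control range. The departure was -2.44 ± 0.08 (SE, adjusted p = 2.30e-16), and that of MT-ND3, a subunit of complex I, was -2.41 ± 0.11. Mitochondrial mRNAs took 3.4 to 4.68% of counts in SOR+NOB, against 6.49 to 9.0% elsewhere, the highest of the SOR+NOB values being replicate 1. Mitochondrial rRNA moved the other way, with 2.75 to 3.1% in SOR+NOB and 1.32 to 2.01% elsewhere. Mitochondrial tRNA took 0.0194% ± 0.000825 (SD, n = 3) in SOR+NOB and 0.0538% ± 0.00127 in Control. Whether RNA selection or RNA quality takes part in these shares was not tested. The 32 nuclear genes of oxidative phosphorylation had 6 higher, 9 lower and a median departure of -0.08, and 19 were called without SOR+NOB replicate 1.

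Of 17 genes of the NF-kB and cytokine response, NOB lowered 11, SOR lowered 9 and the pair raised 10. In the interaction 12 were higher than the sum and 1 lower, with medians of -0.73 log2 for NOB, -0.97 for SOR, 0.96 for both and 2.30 for the departure, which was 2.00 over the 15 members with counts in all groups. TNFAIP3 (A20), an inhibitor of NF-kB signalling, stood at 107, 108 and 108 CPM in Control, 50.4, 52.7 and 51.8 with NOB, 88.3, 101 and 97.8 with SOR and 217, 232 and 229.6 with SOR+NOB. Its departure was 2.30 ± 0.08 (SE, adjusted p = 1.58e-15). IL11, a cytokine of the IL-6 family, averaged 8.03, 2.24, 0.741 and 15.7 CPM and departed by 6.19 ± 0.27 (adjusted p = 3.31e-14). SOCS1, described above, was the member lower than the sum.

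The output of the ERK pathway, the cascade downstream of the RAF kinases that sorafenib inhibits, was counted over 23 genes. SOR lowered 20 of them, and the pair lowered 12 and raised 7. In the interaction 15 were higher than the sum and 4 lower, with medians of -0.30 log2 for NOB, -1.05 for SOR, -0.32 for both and 1.34 for the departure. JUN, a subunit of the AP-1 factor, stood at 70.8, 71.9 and 76.8 CPM in Control, 51.3, 44.2 and 45.1 with NOB, 38.9, 40.6 and 39.2 with SOR and 176, 222 and 218 with SOR+NOB. The SOR+NOB libraries were the highest and the single groups the lowest, and the departure was 3.02 ± 0.11 (SE, adjusted p = 3.06e-15). MYC, a growth-promoting transcription factor, averaged 313, 275, 186 and 655 CPM and departed by 2.00 ± 0.07. VGF, described above as a partial loss, belongs to this list too.

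Heat shock genes were higher than the sum in 13 of 16 and lower in 2, with a median departure of 0.73 log2. DNAJB1, a cochaperone of HSP70, averaged 168, 94.8, 94.9 and 199 CPM and departed by 1.90 ± 0.09. HSPH1, an HSP70 exchange factor, was a cancellation with a departure of 2.05 ± 0.10. Genes of autophagy and the lysosome were higher in 18 of 24 and lower in 2, with a median of 0.62. SQSTM1 (p62), an autophagy receptor, averaged 244, 184, 147 and 273 CPM, and ATP6V1H, a subunit of the lysosomal proton pump, departed by 1.79 ± 0.11. The ATF4 list was divided, with 9 higher, 13 lower and a median of -0.20 over 31 genes. Within it GDF15 (chr19:18374731-18389176), a secreted stress hormone, stood at 510.5, 525 and 505 CPM in Control, 379, 365 and 364 with NOB, 178, 193 and 182 with SOR and 1795, 2130 and 1984 with SOR+NOB. The departure of GDF15 was 3.89 ± 0.08 (SE, adjusted p = 1.93e-19), with SOR+NOB above and SOR below every other group. SLC3A2, the heavy chain of amino acid transporters, departed by 1.41 ± 0.08. Of 25 p53 targets 13 were higher and 5 lower, with a median of 0.37, and PLK3, a stress-responsive kinase, departed by 2.45 ± 0.17. The 24 ER chaperone and unfolded protein response genes had 5 higher and 11 lower, and XBP1, their transcription factor, departed by 0.93 ± 0.07 and PDIA4, a disulfide isomerase, by -0.72 ± 0.06.

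Clock genes were higher than the sum in 12 of 17 and lower in 3, with medians of -0.45 log2 for NOB, 0.14 for SOR, 0.64 for both and 0.95 for the departure. NR1D1 (chr17:40092787-40100725), the REV-ERBα repressor of the clock, stood at 27.8, 22.4 and 26.7 CPM in Control, 15.5, 16.5 and 12.1 with NOB, 17.6, 15.4 and 16.3 with SOR and 247, 249.5 and 252 with SOR+NOB. SOR+NOB libraries lay far above all others and the single groups below Control, a departure of 4.73 ± 0.14 (SE, adjusted p = 2.26e-17). BHLHE40 (DEC1), another clock repressor, averaged 19.3, 16.9, 14.7 and 144 CPM, a departure of 3.48 ± 0.13.

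Histone genes were split in the list of 13, with 8 higher, 4 lower and a median departure of 1.24 log2. HIST1H1C, a linker histone, stood at 14.9, 17.4 and 13.5 CPM in Control, 8.96, 10.6 and 7.83 with NOB, 11.1, 9.6 and 11.8 with SOR and 116, 139 and 134 with SOR+NOB. Its departure was 4.33 ± 0.16 (SE, adjusted p = 3.06e-15). H3F3B, which encodes the replacement histone H3.3, averaged 349, 393, 323 and 1265 CPM and departed by 1.79 ± 0.07. The 4 lower members were H2AFZ, H2AFX, H2AFV and H3F3A, named after their values were seen. Transcripts of most replication-dependent histones carry no poly(A) tail, and the labels leave poly(A) capture or rRNA removal unspecified.

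Of 28 secreted proteins of hepatocytes, SOR raised 19, NOB lowered 21, and the pair raised 10 and lowered 12. In the interaction 15 were lower than the sum and 8 higher, with medians of -0.62 log2 for NOB, 0.79 for SOR, -0.02 for both and -0.24 for the departure. SERPINC1, which encodes antithrombin, averaged 54.2, 83.9, 396 and 135 CPM and departed by -2.18 ± 0.09. HP, haptoglobin, was lowered strongly by NOB and slightly by SOR and not called with the pair, at 216, 209.6 and 226 CPM in Control, 45.9, 48.1 and 48.9 with NOB, 185, 168 and 191 with SOR and 188, 217 and 191 with SOR+NOB. NOB libraries stood alone below the rest, and the departure was 2.32 ± 0.09 (SE, adjusted p = 4.73e-15). TF, transferrin, averaged 2496, 1969, 12770 and 3027 CPM, a departure of -1.73 ± 0.07. Of 20 hepatocyte transcription factors 11 were lower and 4 higher, with a median of -0.37. HNF4A, a nuclear receptor that maintains hepatocyte identity, stood at 296, 298 and 289.5 CPM in Control, 316, 305 and 316 with NOB, 486, 479.6 and 475 with SOR and 176, 224 and 215 with SOR+NOB. All SOR+NOB libraries were the lowest, and the departure was -1.31 ± 0.09 (SE, adjusted p = 5.55e-11).

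Protein synthesis and breakdown showed smaller departures. Aminoacyl-tRNA synthetases were higher than the sum in 13 of 18 and lower in 2, with a median of 0.35 log2. VARS, which charges valine tRNA, departed by 1.55 ± 0.08 and IARS, for isoleucine, by -1.34 ± 0.09. Proteasome subunits were higher in 13 of 25 and lower in 3, with a median of 0.24, and SOR+NOB lay above all 3 other groups in 16. PSMC4 departed by 0.96 ± 0.09 and PSMD2 by 0.56 ± 0.08. Of 24 mitochondrial ribosomal proteins 11 were higher and 2 lower, with a median of 0.21. Cytosolic ribosomal proteins had few calls, with 4 higher, 4 lower and 26 not called of 34, and a median of 0.01. Without SOR+NOB replicate 1, 16 of these 34 were called.

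**Figure D4:**
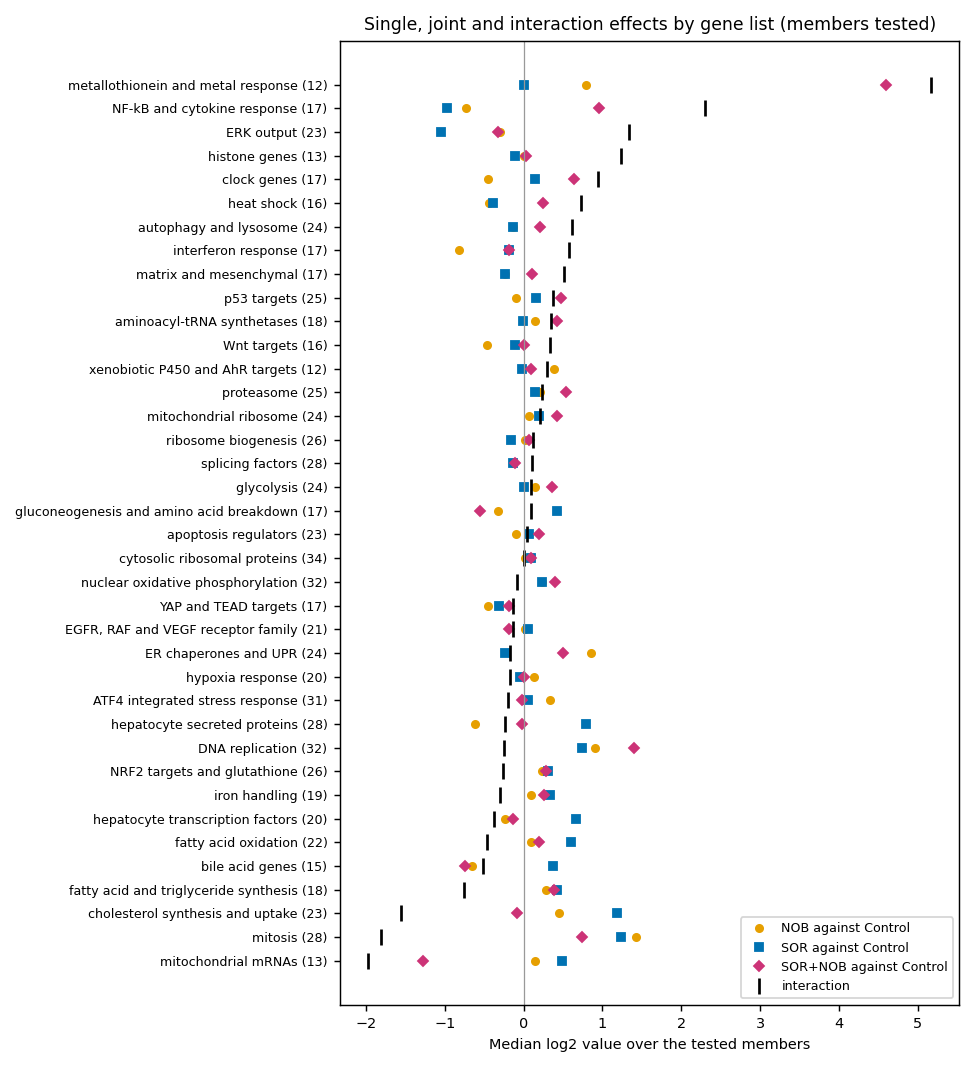
Median log2 value over the tested members of 38 gene lists (y axis, number tested in parentheses) for NOB, SOR and SOR+NOB against Control (orange circles, blue squares, pink diamonds) and for the interaction (black bars), ordered by the interaction. Metal response genes lie at 5.17, or 2.16 without the 3 members with a group at 0 counts, and mitochondrial mRNAs at -1.97, and most lists lie within 1 log2 of 0.

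Gene classes departed unequally. Of 12871 protein-coding genes, 30.3% were higher than the sum and 28.1% lower, with a median of 0.02 log2. Long intergenic noncoding RNAs were higher in 7.83% and lower in 30.6% of 881, with a median of -0.70, and antisense RNAs in 8.2% and 23% of 1281, with a median of -0.50. The strand setting of the counting is not given in the sources used here, so reads of an antisense gene and its partner cannot be told apart. Small nucleolar RNAs went the other way, higher in 35.9% and lower in 2.56% of 39. Of the 17 tested mitochondrial tRNA genes 82.4% were lower. Protein-coding genes whose symbols begin with ZNF, zinc finger proteins, a class chosen after its values were seen, were higher in 15.2% and lower in 34.8% of 428. Genes at low levels had fewer calls, with 9.2% higher and 14.1% lower in the fifth of genes with the lowest mean CPM. Together lincRNA and antisense genes took 0.613% ± 0.0282 (SD, n = 3) of counts in SOR+NOB, against 0.892% ± 0.0401 in Control, 0.924% ± 0.00799 in NOB and 0.72% ± 0.017 in SOR. Small nuclear and nucleolar RNAs took 0.0128% in SOR+NOB and 0.00867%, 0.00917% and 0.00681% in Control, NOB and SOR. Nuclear rRNA took 0.0022% in SOR+NOB and 7.38e-05%, 0.000131% and 0.000106% in the same order. Whether RNA selection or RNA quality takes part in the class results was not tested.

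**Figure D5:**
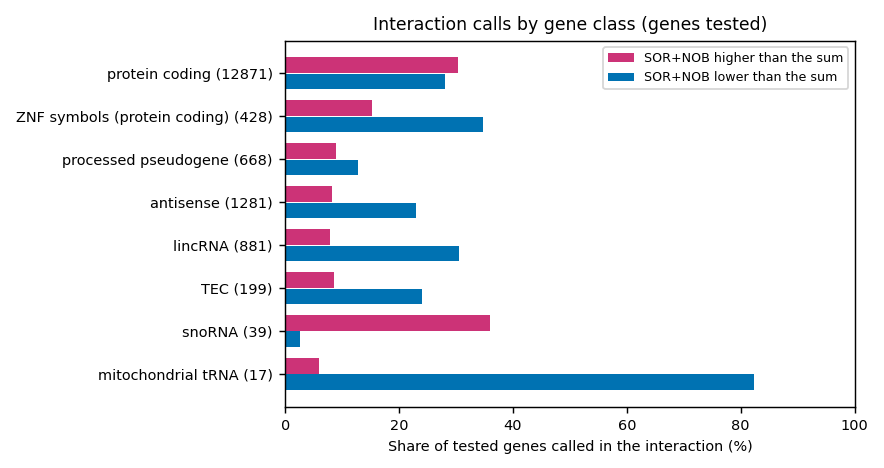
Share of tested genes (x axis, percent) called higher (pink) or lower (blue) than the sum of the single log2 effects in the interaction, by gene class (y axis, number tested in parentheses). Noncoding classes other than small nucleolar RNAs have more lower than higher calls, while protein-coding genes have both at 30.3% and 28.1%.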

How the data were processed

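RNA from HepG2 cells was sequenced in 12 libraries. Alignment used HISAT2 2.0.5 on GRCh38 and counting used featureCounts 1.5.0-p3, per the submitters' processing notes. For the strand setting and for multiply mapped reads, the choice is not given in the sources used here. Per the labels' protocols, RNA was isolated with TRIzol and libraries came either from poly(A) capture or from removal of rRNA. The deposited count table holds raw counts per gene. The FPKM table that the authors deposited was used for an alternative only, and their table of group means was not used.

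Groups came from the sample labels. Counts were filtered with filterByExpr by group, scaled by TMM and fitted in R 4.3.3 with edgeR 4.0.16 (robust quasi-likelihood, 1 mean per group, 8 residual degrees of freedom, biological coefficient of variation 8.44%). The interaction contrast was (SOR+NOB - SOR) - (NOB - Control), and Benjamini-Hochberg adjustment ran over the 17115 genes tested, with calls at adjusted p under 0.05. The forms rest on the calls in this fit, and a form is a description with no test of its own. Log2 values are the fit's, and a standard error is the log2 value divided by the square root of its quasi-likelihood F. Total counts and the spread between libraries limit precision, and floors of 3 counts over a group cover counting error only. The script was tested on simulated data, with 50 genes given a departure at each size. The interaction test recovered 10% of these genes when the departure was 1.3-fold and 32% when it was 1.5-fold. Recovery rose to 50% for a 2-fold departure and reached 68% where it was 4-fold. Among 16449 unchanged genes, 6 were called. A gene not called in the interaction may therefore still depart from the sum.

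Named genes are the 3 protein-coding genes with the largest departure per form and sign among those called, with a mean of at least 2 CPM and still called without SOR+NOB replicate 1. They also include the 2 called members with the smallest interaction p in each of 38 gene lists and every tested metallothionein list member, and some named by this rule are not reported here. Counts and medians of a list cover only the members that passed the filter on low counts. The members, forms, lists and tests were chosen with earlier results of these data known. Libraries that share a replicate number had deviations from their group means that correlated with a median r of -0.0087 over 18 pairs (-0.0504 to 0.0437), so the numbers were not taken to pair libraries. Promoters came from RefSeq (GRCh38.p14). Results were recomputed with DESeq2 1.42.0, with RLE scaling, without the filter, with limma 3.58.1 on log2(FPKM + 1) and log2(FPKM + 0.1), protein-coding genes only, removal of the GC and length trend, a replicate block, a minimum effect of 0.5 log2 for the forms, and leaving out each library. Python 3.11.15 with matplotlib 3.10.9 drew the figures.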

Additional observations from a re-analysis of the deposited data

How the results depend on the processing

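The number of genes called in the interaction, 8908 of 17115 tested, was 9041 with DESeq2 and 8896 with RLE scaling. It was 9518 with the GC and length trend removed, over the same genes. Other alternatives tested other numbers of genes, so their counts are not like for like. Without the filter 8932 of 33593 were called, and among protein-coding genes only 7593 of 12871. With limma on log2(FPKM + 1) and log2(FPKM + 0.1) it was 7885 and 7803 of 14934. With the replicate block it was 8741 of 17115, and 8655 of the 8908 calls were called with the same sign. No call had the opposite sign under any of these alternatives or without any 1 library. Leaving out each library in turn, with 17752 to 17914 genes tested, gave 8280 to 9807 calls (9807 without SOR+NOB replicate 1). Of these calls 3910 to 4702 were higher and 4336 to 5105 lower. Calls of at least 2-fold numbered 3907 to 4264 in these fits, and 1984 with limma on log2(FPKM + 1), a scale that compresses low genes. Across the leave-outs emergent genes numbered 1908 to 2439, synergy 832 to 1412, partial loss 1135 to 1552, cancellation 1528 to 1784, reversal 1177 to 1787, opposed 480 to 992 and unplaced 372 to 627 (593 and 627 without Control replicates 2 and 3), and SOR+NOB beyond all 3 groups 6157 to 6846. Unplaced genes numbered 663 without the filter and 209 among protein-coding genes only. Where each effect also had to reach 0.5 log2, synergy fell to 531, partial loss to 795, reversal to 539 and opposed to 163, and 2146 were unplaced, so the form counts depend on how small an effect is called. Cytosolic ribosomal proteins had 8 members called, 14 with the GC and length trend removed and 16 without SOR+NOB replicate 1, and the cause was not tested. Of 1815 values of the 107 named genes under alternatives, 1808 kept their side of the threshold and direction. Most of these genes were named for a large departure or a small interaction p in these same data. Those named by form also had to stay called without SOR+NOB replicate 1. The choice itself favours a high number kept, which therefore says little about other genes. MT1A, not called, was -0.255 without SOR replicate 3, in a range of -0.255 to 1.1 over the leave-outs. MT1B, MT1M and SLC30A2 were called by some of DESeq2 and limma on log2(FPKM + 1), and SLC39A10 without SOR+NOB replicate 1 (-0.23, adjusted p = 0.0139).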

Other observations

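Growth factor receptors and RAF kinases, the family that holds the targets of sorafenib, were lower than the sum in 9 of 21 tested genes and higher in 6, and SOR+NOB lay below all 3 other groups in 9. Of the list's 28 members, ERBB4, FLT1, FLT4, KDR, KIT, PDGFRA and RET did not pass the filter on low counts. The counts therefore leave out the VEGF receptors FLT1, FLT4 and KDR. ERBB3, a receptor of neuregulins, stood at 544, 544 and 556 CPM in Control, 620.5, 616 and 603 with NOB, 481, 491 and 499 with SOR and 192, 211 and 205 with SOR+NOB. All SOR+NOB libraries were below every other library, and the departure was -1.44 ± 0.07 (SE, adjusted p = 9.10e-14). Of 16 Wnt targets 9 were higher than the sum and 5 lower, and NKD1, an inhibitor of Wnt signalling, stood at 466, 463 and 466 CPM in Control, 418, 416 and 413 with NOB, 341, 352 and 342 with SOR and 871, 949.6 and 978 with SOR+NOB. Its departure was 1.60 ± 0.07 (SE, adjusted p = 2.37e-14), with SOR+NOB above all other libraries and SOR below them. Of 17 matrix and mesenchymal genes tested 10 were higher and 4 lower. Of the list's 25 members, COL4A1, COL4A2, COL5A1, MMP1, MMP7, SNAI2, TWIST1 and VIM did not pass the filter on low counts. Whether this reflects their expression or the counting of reads was not tested. FN1, fibronectin, was a partial loss with a departure of 1.36 ± 0.07. The 17 YAP and TEAD targets had 7 higher, 6 lower and a median of -0.13 log2, although CYR61 and ANKRD1 were among the higher members. Of 17 interferon response genes 8 were higher and 1 lower. IRF1, a transcription factor of that response, departed by 2.49 ± 0.21 and OAS3, an antiviral synthetase, by 1.37 ± 0.12. Apoptosis regulators had 9 higher and 4 lower of 23, with MCL1, an antiapoptotic BCL2 relative, at 0.88 ± 0.07.

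Metabolic lists outside lipids had small medians. Glycolysis had 9 higher, 2 lower and 13 not called of 24 (16 called without SOR+NOB replicate 1), with a median departure of 0.09 log2. PKM, pyruvate kinase, averaged 296, 340.4, 234 and 596 CPM in Control, NOB, SOR and SOR+NOB and departed by 1.15 ± 0.07, and ENO2, an enolase, by 1.71 ± 0.11. Gluconeogenesis and amino acid breakdown had 4 higher and 7 lower of 17, with HGD, of tyrosine breakdown, at -0.64 ± 0.08. Hypoxia response genes had 6 higher and 7 lower of 20, with KDM3A, a histone demethylase, at 0.85 ± 0.10. Iron handling had 5 higher and 9 lower of 19. NRF2 targets had 5 higher and 13 lower of 26 (22 called without SOR+NOB replicate 1), with SLC7A11, the cystine transporter, at -1.57 ± 0.09 and ABCC2, an organic anion exporter, at -1.34 ± 0.08. Xenobiotic P450 and AhR targets had 4 higher and 2 lower of 12, with NQO1, a quinone reductase, at -1.20 ± 0.08. Splicing factors had 11 higher and 6 lower of 28, with SRSF5 at -1.08 ± 0.07, and ribosome biogenesis 11 higher and 4 lower of 26, with RRP12 at 1.11 ± 0.09. SDHC, of complex II, departed by -0.80 ± 0.08, ATP5MC1, of ATP synthase, by -0.92 ± 0.11, and the mitochondrial ribosomal proteins MRPS2 and MRPS30 by 0.73 ± 0.10 and 0.70 ± 0.10. RPS3 and RPL3, of the cytosolic ribosome, departed by -0.35 ± 0.08 and -0.25 ± 0.07.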
